A study of Mus musculus with 16 samples.

Results

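The genes described here encode the nuclear subunits of the mitochondrial respiratory chain and ATP synthase, measured by RNA-Seq in mouse celiac ganglia and neuroblastic tumors. They were chosen by symbol (Nduf, Uqcr, Sdha to Sdhd, Cox4 to Cox8 followed by a letter, and Atp5, without pseudogene symbols) and by a mean level of at least 1 TPM (relative abundance corrected for transcript length) over the 16 libraries. Of the 24411 genes in the table, 92 matched by symbol and 89 passed the level: 38 of complex I, 7 complex I assembly factors (Ndufaf), 4 of complex II, 8 of complex III, 15 of complex IV and 17 of complex V. Of these, 79 were structural subunits. The rest were the assembly factors, Cox7a2l (a supercomplex assembly factor), and Atp5s and Atp5sl, which share the name of ATP synthase but are now called Dmac2l and Dmac2. The members just inside the level were Cox4i2 at a mean of 3.11 TPM, Ndufa4l2 at 5.56 TPM and Cox6b2 at 6.07 TPM, and those just outside were Cox6a2 at 0.701 TPM, Cox7b2 at 0.0306 TPM and Cox8c, listed at 0.

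Ganglia came from 2-week-old mice and made up 12 of the 16 libraries. They were transgene-free with Runx1t1 wild type (TF-WT, n = 4) or heterozygous (TF-het, n = 3), or Th-MYCN homozygous with Runx1t1 wild type (MYCN-WT, n = 3) or heterozygous (MYCN-het, n = 2). The remaining 4 libraries were tumors that arose in Th-MYCN homozygotes wild type for Runx1t1, whose age the labels do not give. The Th-MYCN transgene places human MYCN under the tyrosine hydroxylase promoter, which is active in neuroectodermal cells, and the heterozygous mice carried 1 inactivated Runx1t1 allele. The transgenic line was kept on 129/SvJ, and the Runx1t1 knock-out line came from another stock and was crossed to it. The strain background of the crossed mice is not given in the sources used here. The comparisons ask how the tumors, the transgene and the loss of a Runx1t1 allele relate to the RNA of these genes.

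The respiratory chain passes electrons from NADH (complex I) and succinate (complex II) through ubiquinone and complex III to cytochrome c and on to oxygen at complex IV, and the proton gradient built by complexes I, III and IV drives ATP synthase (complex V). Most subunits are encoded in the nucleus and are made in nearly every cell. Several subunits of complexes IV and V have alternative genes used in different tissues, such as Cox7a1 and Cox8b of muscle and brown fat, which stand in for Cox7a2 and Cox8a. The mitochondrially encoded subunits had 0 rows in the table and were not analysed here.

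Total counts per library ran from 10692299 to 38618757, and 6 ganglia were below 20000000 while all 4 tumors were above it. Those 6 ganglia were all replicate 1 or 2 of their group. Their median count per TPM of short members, relative to Sdha, was 0.0981 to 0.104, against 0.109 to 0.112 in all other libraries. All 12 ganglia held RNA of the sympathetic markers Th and Dbh, and the labels call the cell type neuroblastoma for ganglia and tumors alike. Summed glial markers ran from 432 to 1728 TPM in ganglia and from 7.17 to 15.5 TPM in tumors, and 6 summed markers of sympathetic neurons from 3702 to 11665 TPM and from 1431 to 2393 TPM. In tumors against transgene-free ganglia, all 4 fibroblast markers were lower (sums of 71.2 to 198 against 522 to 2854 TPM), 2 of 3 endothelial markers were lower (24.5 to 61.0 against 35.6 to 397 TPM) and 2 of 4 myeloid markers were higher (257.5 to 791 against 31.6 to 1932 TPM). The part of cell makeup in the results on tumors was not tested. Runx1t1 itself did not separate heterozygous from wild-type ganglia: it read 8.83 and 16.9 TPM in MYCN heterozygotes against 70.3, 7.90 and 37.4 TPM in MYCN wild types. Among the 12 ganglia, replicate 3 of the MYCN-WT ganglia had the highest level of 51 of the 89 members in TMM-scaled read counts (CPM, a level comparable between libraries but not between genes), and replicate 1 of the same group had the lowest level of 28. Calls that rest on this group are therefore also given without those libraries. Replicate 2 of the TF-WT ganglia had the lowest level of 25 members, and it had the highest myeloid sum (1932 TPM, against 31.6 to 143 TPM in the other transgene-free ganglia), the highest endothelial sum (397 TPM) and the lowest sympathetic sum (3702 TPM) of the 12 ganglia. The labels do not say whether libraries of a group came from separate animals, and if they did not, p-values measure the spread between these samples only.

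Most members were abundant. By mean TPM over the 16 libraries, 55 of the 89 were among the 1000 most abundant genes, 76 among the first 2000 and 78 among the first 5000. The most abundant member of each complex was Ndufv3 in complex I (452 TPM), Sdha, the flavoprotein of succinate dehydrogenase, in complex II (212 TPM), Uqcrq in complex III (1053 TPM), Cox6c in complex IV (1437 TPM, rank 62 of all genes) and Atp5h in complex V (1349 TPM, rank 70). Assembly factors were lower, from 12.1 TPM for Ndufaf5 to 55.6 TPM for Ndufaf2. A single GENCODE vM21 position was found for 87 members, spread over 19 chromosomes, and the exons of 29 members overlapped another gene.

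In tumors against the 7 transgene-free ganglia, 12 members were higher and 18 lower by edgeR's quasi-likelihood test (Benjamini-Hochberg adjusted p under 0.05 over 16665 genes), and all 89 had passed the filter on low counts. Over all genes tested, 30.6% were higher and 30.9% lower, 61.4% in either direction. Among the members 33.7% were called, and their median log2 fold change of -0.06 equalled that of all genes, -0.06. The shifts were small: 8 of 89 members (8.99%) went beyond a log2 fold change of 1 in either direction, against 50.5% of all genes tested, with a median size of 0.27 against 1.01. The CPM of the groups did not overlap for 18 members (44.1% of all genes). Since the libraries are bulk tissue, fewer cells of a type and less RNA per cell cannot be told apart. The number of lower members fell from 18 to 10 with a term for sex in the model (Ddx3y, a Y-linked gene, was above 1 CPM in 3 of 12 ganglia and 3 of 4 tumors), and also to 10 without replicates 3 and 4 of the TF-WT ganglia, the pair with the most Ucp1 RNA in that group, a setting chosen after seeing the data. Members called higher numbered 15 with the term for sex and 12 without those replicates. Of all genes tested, 57.6% and 57.5% were called in these fits. Without replicate 2 of the TF-WT ganglia, 11 members were higher and 21 lower (65.1% of all genes called).

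The direction of a member depends on the scale. On the TPM scale the median of all genes tested was itself lower in tumors, with a log2 ratio of -0.51, and that of the members was -0.50. Relative to that median, 45 members lay above and the others below. Of the 12 members called higher, 8 also had a higher mean TPM in tumors (Atp5e, Atp5f1, Atp5g2, Ndufa12, Ndufaf2, Ndufaf4, Ndufc2 and Ndufs5), while Atp5a1, Atp5c1, Ndufb7 and Ndufb11 had a lower mean TPM. For Ndufaf4 (15.3 against 14.6 TPM), Ndufc2 (163 against 156), Ndufa12 (157 against 150) and Atp5f1 (237 against 232) the means were close. Without overlap in TPM, 2 members were higher and 31 lower in tumors, against 2409 and 5153 of all 16665 genes tested. All 18 called lower were lower on both scales. The precursor of ribosomal RNA, Rn45s, took 8.57% to 12.8% of the counts in tumors and 2.15% to 8.80% in ganglia. With TPM rescaled without Rn45s, the summed member level in tumors was 0.694 of the transgene-free mean, against 0.679 with it.

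**Figure D1:**
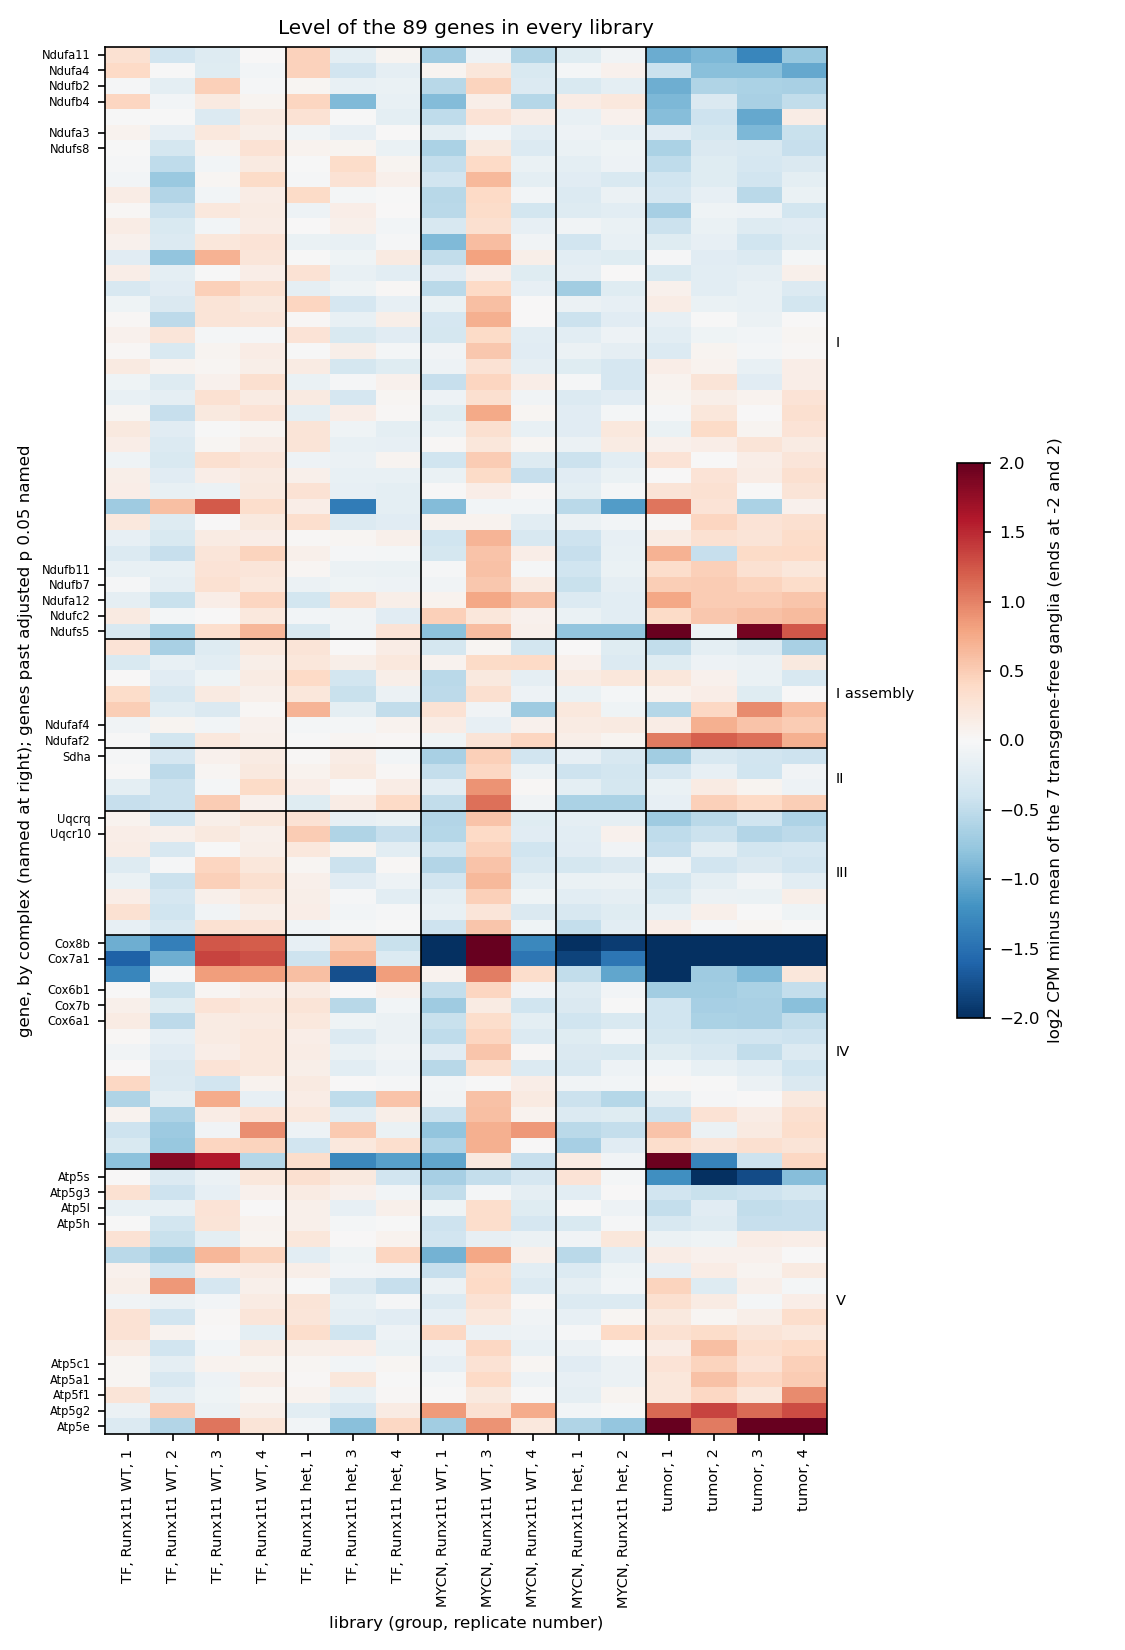
Log2 CPM of each of the 89 genes (rows, by complex and by log2 fold change in tumors) in each of the 16 libraries (columns), minus the mean of the 7 transgene-free ganglia (TF), with colours ending at -2 and 2. Names at the left are of genes past an adjusted p of 0.05 in tumors against those ganglia. Cox8b and Cox7a1 are low in all 4 tumors and differ widely among ganglia, and replicate 3 of the MYCN-WT ganglia is high for most rows.

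Complex I had 5 members higher and 6 lower in tumors (28.9% of 38 called, against 61.4% of all genes tested), with a median log2 fold change of -0.07. Among the lower members whose groups did not overlap, Ndufa11, an accessory subunit of the membrane arm, read 43.5 to 78.2 CPM (median 56.8) in transgene-free ganglia and 28.5, 30.3, 22.9 and 33.5 CPM in tumors. Its gene (chr17:56717767-56722141, GENCODE vM21 on GRCm38) overlaps exons of Vmac on the opposite strand. Its log2 fold change was -1.01 ± 0.19 (SE, edgeR adjusted p = 0.000311). Ndufa4, which is now counted as a subunit of complex IV, was lower, with a log2 fold change of -0.79 ± 0.19 (edgeR adjusted p = 0.00279), with 37.1 ± 8.67 CPM (SD, n = 7) in transgene-free ganglia and 21.4 ± 3.84 CPM (SD, n = 4) in tumors. Ndufb2, an accessory subunit, was lower, with a log2 fold change of -0.71 ± 0.19 (edgeR adjusted p = 0.00554). The other lower members were Ndufb4, Ndufa3 and Ndufs8, with log2 fold changes between -0.59 and -0.43, and of these Ndufs8 carries iron-sulphur clusters of the electron path. The Ndufb4 call was lost with the replicate number as a block (edgeR adjusted p = 0.0789).

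The higher members of complex I were mostly small accessory subunits. Ndufc2 rose from 30.6 ± 3.30 to 44.2 ± 3.31 CPM (SD, n = 7 and 4), with tumors at 39.5, 44.4, 45.6 and 47.1 CPM above the highest transgene-free ganglion at 35.3 CPM (log2 fold change 0.55 ± 0.11, edgeR adjusted p = 0.000592). Ndufa12 (0.55 ± 0.19) and Ndufb7 (0.46 ± 0.13) rose likewise without overlap in CPM, and Ndufb11 rose by 0.35 with overlap. The Ndufa12 call was lost without tumor 1 (edgeR adjusted p = 0.0573) and with only libraries over 20000000 counts (0.33, edgeR adjusted p = 0.0562), and the Ndufb11 call with the replicate number as a block (edgeR adjusted p = 0.0617). Ndufs5 had the largest positive log2 fold change of complex I, 1.40 ± 0.36 (edgeR adjusted p = 0.00383), but was chosen here after its values were seen. Its tumors read 61.5, 14.7, 58.7 and 37.1 CPM, so that tumor 2 lay within the transgene-free range of 10.1 to 24.9 CPM. Its expected counts were fractional in 15 libraries, which RSEM gives where reads match more than 1 place, so its level is uncertain. Ndufs1, Ndufs3, Ndufs7, Ndufv1 and Ndufv2, core subunits of the matrix arm, had log2 fold changes from -0.35 to 0.19, and the test called 0 of these 5. Of the 7 assembly factors, Ndufaf2 and Ndufaf4 rose and 5 were not called. Ndufaf2, which binds a late intermediate of complex I, read 7.28 to 10.9 CPM (median 9.55) in transgene-free ganglia and 19.3, 21.4, 20.02 and 15.4 CPM in tumors, every tumor above every ganglion (log2 fold change 1.01 ± 0.15, edgeR adjusted p = 7.07e-05). Ndufaf4 rose by 0.50 ± 0.12 (edgeR adjusted p = 0.00287), from 21.1 ± 1.00 to 29.7 ± 4.70 CPM (SD, n = 7 and 4).

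**Figure D2:**
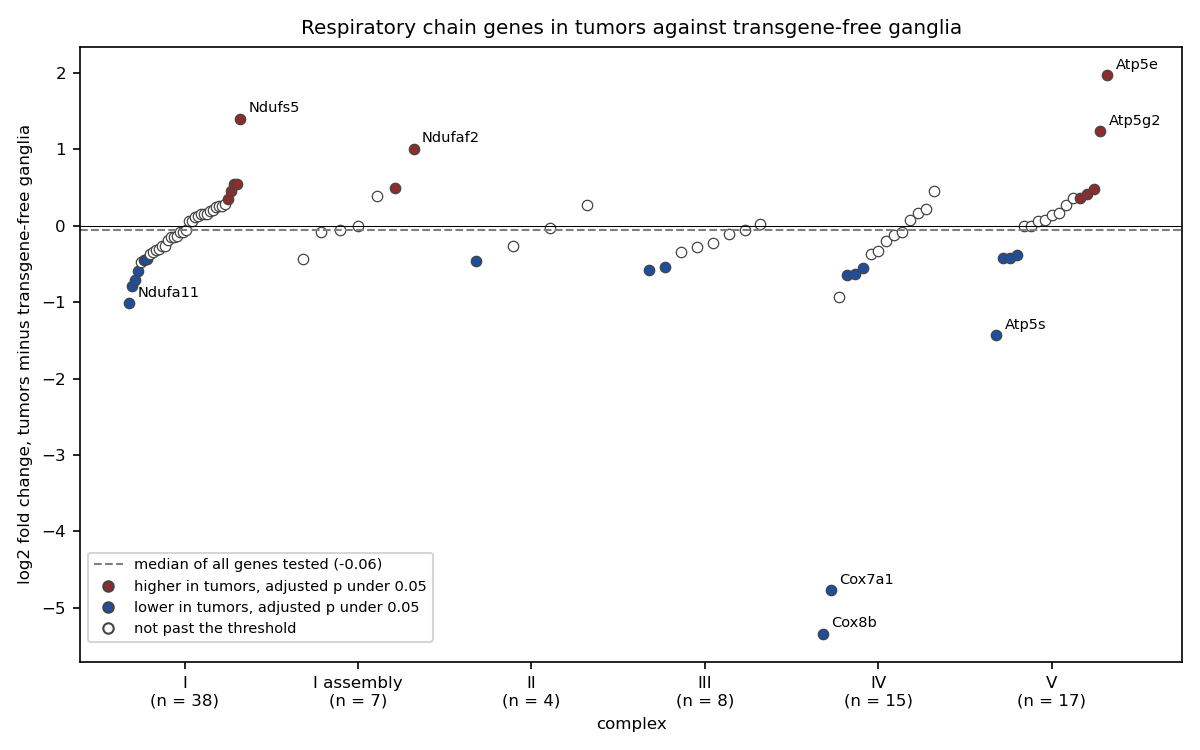
Log2 fold change of each member in tumors minus transgene-free ganglia (vertical axis), by complex; red (higher) and blue (lower) points passed an adjusted p of 0.05, white points did not, and the dashed line is the median of all genes tested, -0.06. Most points lie within 1 of that line, and Cox8b and Cox7a1 lie near -5.

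Complexes II and III had 0 members higher (30.6% of all genes were), and 25% of each were called lower (30.9% of all genes). Sdha, the catalytic subunit, was lower, with a log2 fold change of -0.46 ± 0.19 and an edgeR adjusted p of 0.0459: 218 to 309 CPM in transgene-free ganglia (median 280) and 169, 220, 212 and 207 CPM in tumors. This call was lost with a term for sex (edgeR adjusted p = 0.159), with the replicate number as a block (edgeR adjusted p = 0.0526), with RLE (0.0501) or upper-quartile scaling (0.0531), with no filter on low counts (0.0605), without replicates 3 and 4 of the TF-WT ganglia (0.149) and on leaving out any library other than replicate 2 of the TF-WT ganglia. The others were not called, with log2 fold changes of -0.26 ± 0.17 for Sdhb (iron-sulphur subunit), 0.27 ± 0.28 for Sdhc and -0.03 ± 0.20 for Sdhd (membrane anchors). In complex III, Uqcrq (-0.58 ± 0.20, edgeR adjusted p = 0.0204) and Uqcr10 (-0.53 ± 0.22, edgeR adjusted p = 0.0444), both small accessory subunits, were lower with overlapping groups, and the Uqcrq call was lost with a term for sex (edgeR adjusted p = 0.0856), without replicate 1 of the TF-het ganglia (0.0503), without tumor 1 (0.0556) and without replicates 3 and 4 of the TF-WT ganglia (0.0757). The Uqcr10 call was lost with the replicate number as a block (edgeR adjusted p = 0.0684). The core subunits Uqcrc1 (-0.35 ± 0.17), Uqcrc2 (-0.11 ± 0.15) and Uqcrfs1, the Rieske protein (-0.05 ± 0.14), were not called.

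Complex IV had 0 members higher (30.6% of all genes were) and 5 lower (33.3% of 15, near the 30.9% of all genes). The lower ones were Cox8b, Cox7a1, Cox6b1, Cox7b and Cox6a1. Cox8b read 5.12, 3.90, 23.8 and 23.1 CPM in TF-WT ganglia and 8.97, 14.1 and 7.35 CPM in heterozygotes, against 0.349, 0.0847, 0.464 and 0.281 CPM in tumors. Cox7a1 read 2.40, 3.73, 18.8 and 18.02 CPM, then 5.53, 11.485 and 6.08 CPM, against 0.194, 0.254, 0.357 and 0.505 CPM. Every tumor was below every transgene-free ganglion for both genes, and the ganglia differed widely among themselves. Cox8b lies at chr7:140898945-140900446 and Cox7a1 at chr7:30184144-30186078 (GENCODE vM21, GRCm38). Log2 fold changes were -5.34 ± 1.07 for Cox8b (edgeR adjusted p = 0.000657) and -4.77 ± 1.02 for Cox7a1 (edgeR adjusted p = 0.00104), with counts as low as 3 and 5 in a tumor library.

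Ucp1, the uncoupling protein that defines brown fat, moved with both genes. It read 51.9, 57.6, 342 and 317 TPM in TF-WT ganglia, 151, 101 and 80.7 TPM in heterozygotes, and 2.28, 1.89, 5.80 and 9.56 TPM in tumors. In the same libraries, Cox8b read 91.2, 61.8, 354 and 357 TPM, then 169, 218 and 110 TPM, then 3.81, 0.900, 5.19 and 3.04 TPM. Among the MYCN ganglia, replicate 3 with wild-type Runx1t1 had the highest TPM of all 12 ganglia for Ucp1 (449), Cox7a1 (509) and Cox8b (689), and replicate 1 the lowest for Ucp1 (13.3), Cox7a1 (14.0) and Cox8b (12.9). Of the 4 brown fat markers, Cox8b and Ucp1 were lower in tumors, Elovl3 was higher and Cidea was not called, and Elovl3 was at or below 0.220 TPM in every ganglion and at 0.53, 0.06, 23.7 and 0.44 TPM in tumors. Without Cox8b, the list summed to 82.1 to 484 and 147 to 255 TPM in transgene-free wild types and heterozygotes, 34.5 to 687 and 49.2 to 57.0 TPM in MYCN wild types and heterozygotes, and 36.4 to 97.2 TPM in tumors. Skeletal muscle markers, of which 5 of 6 were lower in tumors, summed to 10.2 to 199 TPM in transgene-free ganglia and 5.55 to 16.2 TPM in tumors, and the 3 white fat markers, of which 1 was lower, to 26.9 to 238 and 3.32 to 38.2 TPM, with overlap. No fat or skeletal muscle marker was at 0 in every library. The part of fat or muscle tissue in the lower Cox7a1 and Cox8b levels was not tested.

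**Figure D3:**
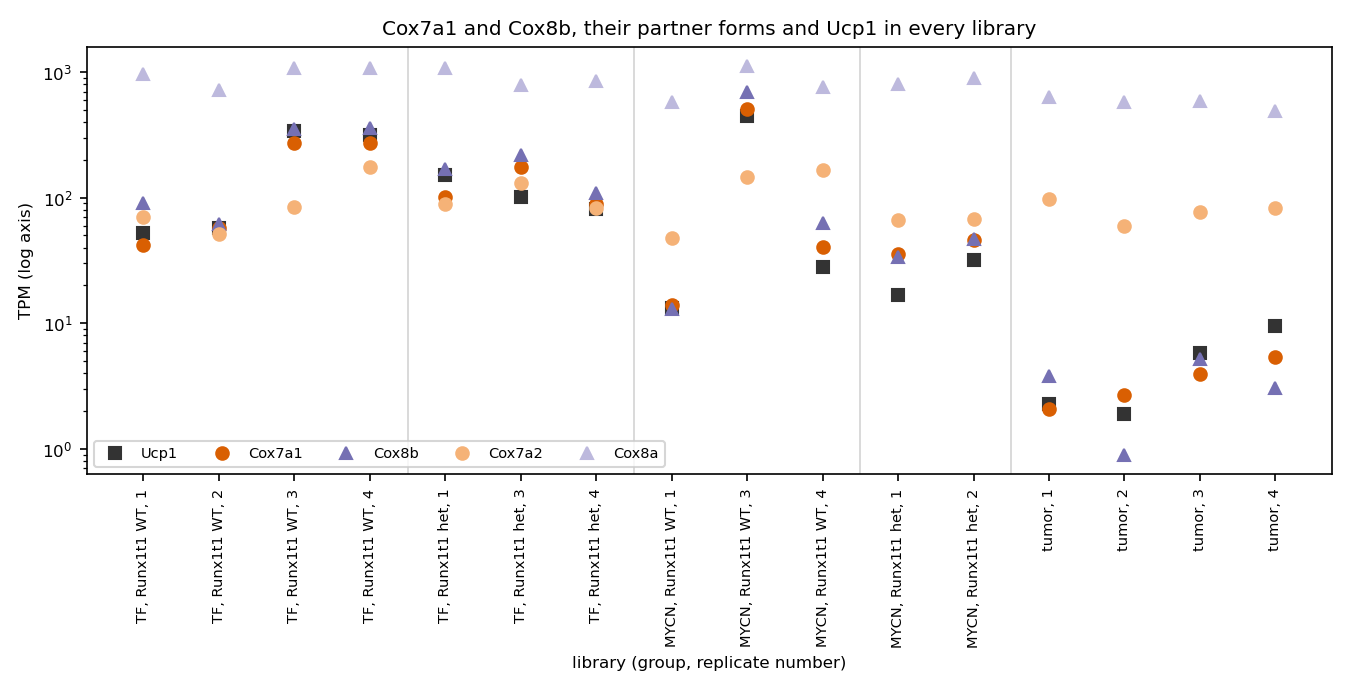
TPM on a log axis of Cox7a1 and Cox8b, their partner genes Cox7a2 and Cox8a, and Ucp1 in each of the 16 libraries (TF, transgene-free). Among the 12 ganglia, the same library is highest and the same library lowest for Ucp1, Cox7a1 and Cox8b, but the order differs in between and among tumors, and the ratio of Cox8b to Ucp1 runs from 0.318 to 2.23, while Cox8a stays between 495 and 1111 TPM.

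The promoters of both genes are shown because the pair fell together. They are the 250 bases before the start of each gene on its own strand (RefSeq, GRCm38.p6), Cox7a1 at chr7:30183921-30184170 on the plus strand and Cox8b at chr7:140900447-140900696 on the minus strand. In these windows, 0 matches were found to CACGTG (the E-box bound by MYC proteins), GCGCATG (the start of the NRF1 motif) and CTTCCG (the ETS motif of GABP), on either strand, so the letters are all in lower case.
Cox7a1: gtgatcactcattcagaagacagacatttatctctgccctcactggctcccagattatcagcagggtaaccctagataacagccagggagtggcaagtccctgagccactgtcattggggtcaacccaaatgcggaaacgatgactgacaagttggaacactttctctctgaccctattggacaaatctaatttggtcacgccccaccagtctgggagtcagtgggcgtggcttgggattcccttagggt
Cox8b: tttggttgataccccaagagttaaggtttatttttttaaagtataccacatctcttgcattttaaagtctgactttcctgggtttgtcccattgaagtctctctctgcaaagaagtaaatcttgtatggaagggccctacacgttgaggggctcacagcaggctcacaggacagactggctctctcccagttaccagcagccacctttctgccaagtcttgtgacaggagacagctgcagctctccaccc

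Apart from these 2 genes, the lower members of complex IV were ubiquitous forms with shifts of under 1 on the log2 scale. Cox6b1 read 44.7 to 67.8 CPM (median 62.2) in transgene-free ganglia and 37.4, 37.3, 39.3 and 43.6 CPM in tumors, without overlap (-0.64 ± 0.16, edgeR adjusted p = 0.00325). Cox7b (-0.64 ± 0.19) and Cox6a1 (-0.56 ± 0.17) were lower with overlapping groups. Cox6c and Cox4i1 also lay below every transgene-free ganglion in CPM in all 4 tumors, but with edgeR adjusted p of 0.0537 and 0.0563 they were not called. DESeq2 called both, with adjusted p of 0.0380 and 0.0348. Cox5a, Cox5b and Cox7c were not called, with log2 fold changes of -0.12, 0.22 and 0.08.

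Alternative forms of a subunit were compared as log2 ratios of TPM + 0.1, in 4 tumors against 7 transgene-free ganglia, by an exact two-sided permutation test over samples (adjusted over 7 pairs, smallest possible p 0.00606). Cox7a1 made up 55.8% of the summed Cox7a1 and Cox7a2 TPM in transgene-free ganglia and 4.33% in tumors, a difference of log2 ratios of -4.88 (exact p = 0.00606, adjusted p = 0.0106). Cox8b made up 16.1% of the Cox8b and Cox8a TPM and 0.559% in tumors, a difference of -5.14 (exact p = 0.00606, adjusted p = 0.0106). For neither ratio did the groups overlap, and the Ucp1 values above apply to both. The groups overlapped for 3 further pairs: Cox4i2 to Cox4i1, where Cox4i2 is the form used in lung and under low oxygen (0.51, adjusted exact p = 0.594), Cox6b2 to Cox6b1, where Cox6b2 is the testis form (-0.08, adjusted exact p = 0.709), and Ndufa4l2 to Ndufa4 (1.03, adjusted exact p = 0.119). The last passed the threshold without replicate 3 of the TF-WT ganglia, at 1.28 (adjusted exact p = 0.04). The pair Cox6a2 and Cox6a1 was not entered because Cox6a2 had a mean of 0.701 TPM.

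Complex V had 5 members higher and 4 lower, and the largest share called, 52.9% of 17 against 61.4% of all genes tested. The c subunit, the rotor ring that carries protons, is encoded by Atp5g1, Atp5g2 and Atp5g3, whose products differ in the leader peptide and are the same when mature. Atp5g2 rose: it read 18.2, 28.1, 18.3 and 21.5 CPM in TF-WT ganglia, 17.1, 15.6 and 22.1 CPM in heterozygotes, and 43.8, 50.4, 43.5 and 48.7 CPM in tumors. All tumors were above all 12 ganglia, of which the highest MYCN ganglion read 35.8 CPM (log2 fold change against transgene-free ganglia 1.23 ± 0.15, edgeR adjusted p = 1.37e-05). Atp5g3, the most abundant of the 3 genes, fell by 0.42 ± 0.14 on the log2 scale (edgeR adjusted p = 0.0153), with tumors at 71.7 to 76.7 CPM and transgene-free ganglia at 72.8 to 121 CPM. Atp5g1 had a log2 fold change of -0.01 ± 0.14 and was not called.

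As a share of their summed TPM, Atp5g2 was 14.5% ± 4.596 (SD, n = 7) in transgene-free ganglia and 31.4% ± 2.00 (SD, n = 4) in tumors, and Atp5g3 was 59.5% ± 3.33 and 43.2% ± 1.41. In MYCN-WT ganglia the Atp5g2 share was 29.1%, 17.5% and 23.4%, and in MYCN heterozygotes 15.008% and 13.4%. The log2 ratio of Atp5g2 to Atp5g3 was higher in tumors by 1.62 and that of Atp5g1 to Atp5g3 by 0.43, both without overlap (exact permutation test, p = 0.00606, adjusted p = 0.0106 for each). The Atp5g3 call was lost with a term for sex in the model (log2 fold change -0.33, edgeR adjusted p = 0.063).

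**Figure D4:**
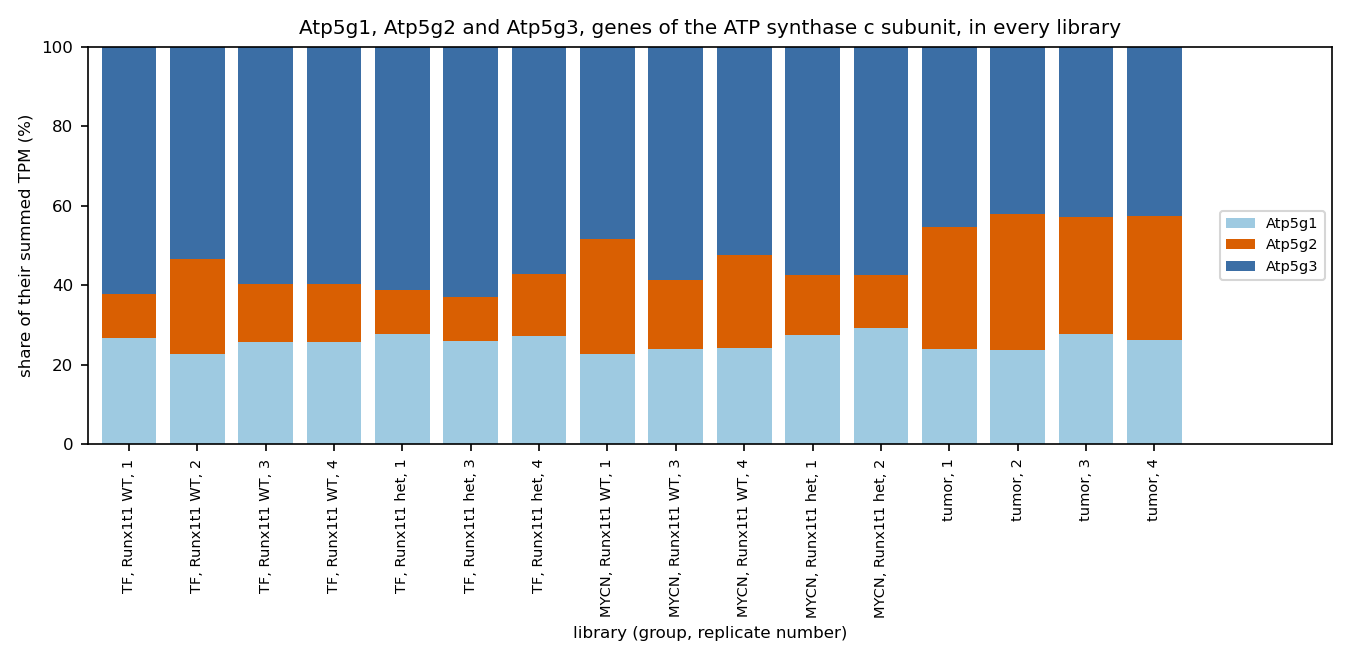
Share of Atp5g1, Atp5g2 and Atp5g3 in their summed TPM (vertical axis, percent) in each of the 16 libraries (TF, transgene-free). The Atp5g2 share is 29.4% to 34.2% in the 4 tumors and 10.96% to 23.97% in the 7 transgene-free ganglia.

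The promoters of the 3 c subunit genes are shown because their levels diverged. They are the 250 bases before each start (RefSeq, GRCm38.p6), all on the minus strand, and capitals mark matches to the 3 motifs named above on either strand. Atp5g1 (chr11:96075632-96075881) held an E-box 44 bases before the start, Atp5g2 (chr15:102671048-102671297) an ETS match 210 bases before it and a pair of overlapping NRF1 starts on opposite strands at 42 and 39 bases, and Atp5g3 (chr2:73911327-73911576) an E-box at 238 bases. The Atp5g2 window lies inside the longer GENCODE gene (chr15:102662864-102672352). A match is a description and not a binding site.
Atp5g1: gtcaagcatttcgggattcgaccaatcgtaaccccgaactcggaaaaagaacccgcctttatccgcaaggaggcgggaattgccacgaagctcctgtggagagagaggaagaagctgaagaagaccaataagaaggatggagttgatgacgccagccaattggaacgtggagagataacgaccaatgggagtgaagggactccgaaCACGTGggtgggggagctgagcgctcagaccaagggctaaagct
Atp5g2: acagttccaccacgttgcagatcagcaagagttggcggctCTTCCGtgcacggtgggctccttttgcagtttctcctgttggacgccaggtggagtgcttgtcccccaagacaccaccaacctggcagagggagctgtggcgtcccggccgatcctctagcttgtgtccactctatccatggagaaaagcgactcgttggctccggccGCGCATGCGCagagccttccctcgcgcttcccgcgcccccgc
Atp5g3: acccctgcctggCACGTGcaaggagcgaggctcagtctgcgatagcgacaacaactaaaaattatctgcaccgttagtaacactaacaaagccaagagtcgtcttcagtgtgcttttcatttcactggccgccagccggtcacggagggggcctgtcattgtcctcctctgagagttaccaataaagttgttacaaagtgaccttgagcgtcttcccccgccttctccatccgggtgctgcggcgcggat

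The other called members of complex V lay on both sides. Atp5a1 (0.42 ± 0.13) and Atp5c1 (0.37 ± 0.10) of the catalytic head and Atp5f1 of the stalk (0.48 ± 0.14) were higher in CPM, and Atp5b, the catalytic beta subunit, was not called at 0.36 ± 0.15 (edgeR adjusted p = 0.0504). Atp5c1 read 126 to 150 CPM in transgene-free ganglia and 172, 195, 173 and 198 CPM in tumors, without overlap. Atp5e, the epsilon subunit, had the largest positive log2 fold change of all members, 1.97 ± 0.37 (edgeR adjusted p = 0.000374), with 32.7, 14.998, 35.6 and 39.2 CPM in tumors and 4.10 to 15.3 CPM in transgene-free ganglia. Its tumor 2, as for Ndufs5, lay within the range of the ganglia. On the lower side, Atp5l, subunit g of the membrane part, was at 54.4, 64.9, 53.6 and 55.1 CPM against 67.3 to 91.3 CPM (-0.42 ± 0.13, edgeR adjusted p = 0.0149, and 0.0627 without replicates 3 and 4 of the TF-WT ganglia). Atp5h, subunit d of the stalk, was lower, at -0.38 ± 0.16 (edgeR adjusted p = 0.0473), a call lost with a term for sex (edgeR adjusted p = 0.162), with the replicate number as a block (edgeR adjusted p = 0.0726), with upper-quartile scaling (0.0528), with no filter on low counts (0.0628), without replicates 3 and 4 of the TF-WT ganglia (0.169), and on leaving out any library other than replicate 2 of the TF-WT ganglia (0.0595 to 0.109). Atp5s, which is not a subunit, read 3.77 to 6.17 CPM in transgene-free ganglia and 2.10, 1.19, 1.43 and 2.72 CPM in tumors (-1.43 ± 0.29, edgeR adjusted p = 0.000619). Atp5a1, Atp5b, Atp5e and Atp5f1 were chosen here after their values were seen, as were Atp5sl, Ndufs8, Ndufb4, Ndufb11, Ndufa3, Cox6a1, Cox7b, Uqcr10 and the uncalled subunits named above.

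Summed levels of each complex were also compared, with no test made on sums. Complex V was 2619 ± 246 CPM (SD, n = 7) in transgene-free ganglia and 3157 ± 265 CPM (SD, n = 4) in tumors. Every tumor, at 2840 to 3418 CPM, was above every transgene-free ganglion, at 2122 to 2816 CPM. A sum of CPM is led by the members with the most reads. Here these were Atp5a1, with means of 756 and 1016 CPM, and Atp5b, which was not called, with 655.5 and 845 CPM. Of the 17 members, 12 had log2 fold changes above 0 and 5 below. Complex I was 2000.1 ± 212 and 1981 ± 76.5 CPM. Complexes II, III and IV were at 0.821, 0.825 and 0.826 of the transgene-free mean, and complex IV was at 0.840 without Cox7a1 and Cox8b. In TPM every complex was lower in tumors, from 0.567 of the transgene-free mean for complex III to 0.789 for complex V, so that complex V was higher in CPM and lower in TPM. All 89 members together took 2.88% of the TPM in transgene-free ganglia and 1.95% in tumors.

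**Figure D5:**
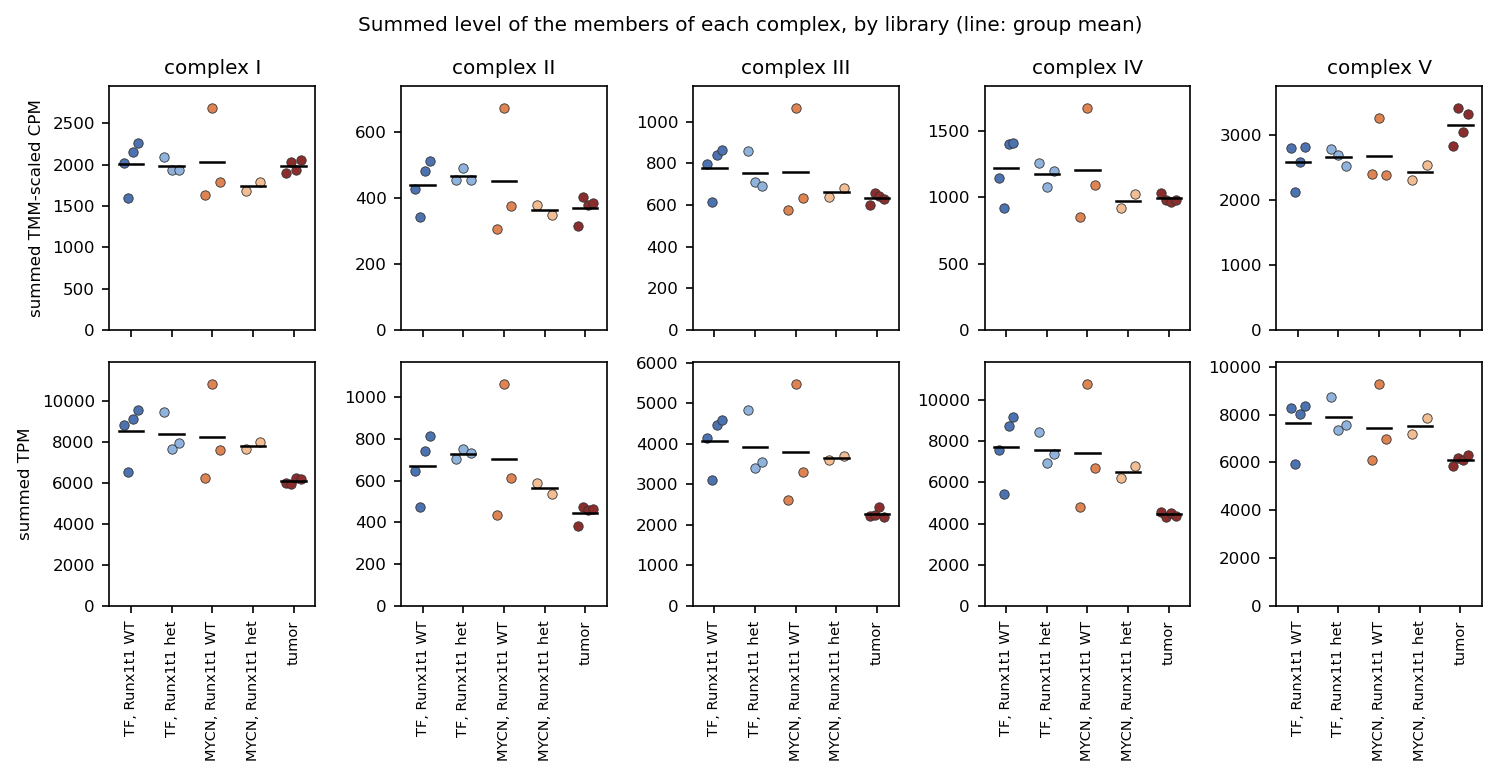
Summed level of the members of each complex (columns) in each library, as TMM-scaled CPM (upper row) and as TPM (lower row), with points for libraries, lines for group means and TF for transgene-free. In CPM the sum of complex V, led by Atp5a1 and Atp5b, is higher in all 4 tumors (2840 to 3418) than in the 7 transgene-free ganglia (2122 to 2816). In TPM the tumor mean of every complex is the lowest of the 5 groups.

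Against MYCN-WT ganglia, 5 members were higher (14% of all genes tested were) and 8 lower (20.5%; 34.5% in either direction) in tumors by edgeR's test. The higher members were Atp5e (1.79), Ndufs5 (1.37), Ndufaf2 (0.81), Atp5g2 (0.59) and Ndufaf4 (0.47, all log2 fold changes). The lower ones were Cox8b (-5.88 ± 1.15, edgeR adjusted p = 0.0017), Cox7a1 (-5.28 ± 1.09, edgeR adjusted p = 0.00243), Atp5s, Ndufa4, Ndufb2, Cox6b1, Cox4i1 and Atp5l, the last 6 between -0.92 and -0.44. The Cox8b level in these ganglia was 0.825, 46.9 and 4.11 CPM, and the Ucp1 values given above apply here too. Counts moved with single libraries. Without replicate 3 of these ganglia, 6 members were higher and 2 lower (21.3% of all genes were called), and 8 of the calls named here were lost: Atp5g2 (0.44, edgeR adjusted p = 0.144), Ndufaf4 (0.121), Atp5s (0.0986), Ndufa4 (0.0861), Ndufb2 (0.310), Cox6b1 (0.145), Cox4i1 (0.289) and Atp5l (0.287). Cox8b and Cox7a1 were still called, at log2 fold changes of -3.10 (edgeR adjusted p = 0.0160) and -2.47 (edgeR adjusted p = 0.0346). Without replicate 1, 13 were lower (40.6% of all genes called) and the Ndufs5 call was lost (1.08, edgeR adjusted p = 0.102), and without replicate 4, 2 were higher and 5 lower (24.4%). Without tumor 2, 3 or 4, 3 were higher and 4 or 5 lower (28.8% to 30.7%). Against MYCN-het ganglia, 11 members were higher (22%) and 3 lower (23.5%; 45.5% in either direction). Atp5g2 (1.27 ± 0.23), Ndufaf2 (0.93 ± 0.23), Ndufb7 (0.75 ± 0.19), Ndufc2 (0.70 ± 0.16) and Atp5c1 (0.54 ± 0.15) were among the higher ones, and the lower ones were Atp5s (-1.52 ± 0.36), Ndufa11 (-0.81 ± 0.24) and Ndufa4 (-0.79 ± 0.25). Cox8b (-2.96 ± 1.16) and Cox7a1 (-2.83 ± 1.11) were not called here, but both were called by DESeq2 (adjusted p = 0.0157 and 0.0185), by edgeR with only the groups compared (adjusted p = 0.0161 and 0.00801), with the replicate number as a block (-4.11 and -3.79, edgeR adjusted p = 0.00686 and 0.00564) and with a term for library depth (-5.09 and -5.14, edgeR adjusted p = 0.00532 and 0.00264). Only 2 ganglia stand behind this comparison, both below 20000000 counts. With a term for library depth, 4 members were higher and 4 lower (43.8% of all genes were called), and 4 of these were also called in the main fit. Of the members named as called, this term ended the calls of Ndufa4 (-0.39, edgeR adjusted p = 0.278), Ndufa11 (0.0839), Atp5c1 (0.0751), Ndufb7 (0.0624) and Ndufaf2 (0.0505). Leaving out either ganglion leaves 1 in the group, and the spread then comes from the other groups. Only effect sizes are therefore given for those fits. Without replicate 1 and without replicate 2, the log2 fold changes were -0.89 and -0.73 for Ndufa11 and -0.85 and -0.72 for Ndufa4. Without replicate 1 they were -1.36 for Atp5s, 0.63 for Ndufb7 and 0.49 for Atp5c1. Both comparisons share the 4 tumors with the one above.

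Among ganglia, edgeR's test called 0 members in each of 4 comparisons. In MYCN-WT against TF-WT ganglia, where 0.936% of all genes were called and 19.8% had an unadjusted p under 0.05, 2 of 89 members had such a p: Atp5g2, at a log2 fold change of 0.53 (adjusted p = 0.156), and Ndufaf1, an early assembly factor, at 0.42 (adjusted p = 0.245). Atp5g2 read 35.8, 24.4 and 33.1 CPM in these MYCN ganglia and 18.2, 28.1, 18.3 and 21.5 CPM in the transgene-free ones, so the groups overlapped. Without replicate 3 of the MYCN ganglia it was the 1 member called (0.68, edgeR adjusted p = 0.0434), while 10.9% of all genes were. Without replicate 2 of the TF-WT ganglia, 4.08% of all genes were called. The share was 0% without replicate 1 or 4 of the MYCN-WT ganglia and without replicate 1, 3 or 4 of the TF-WT ganglia. It was also 0% with the replicate number as a block and with only the groups compared. In MYCN-het against TF-het ganglia, 0% of all genes were called and an unadjusted p under 0.05 was found for 1.45% of all genes and 0 members. Fitted log2 fold changes were below 0 for 76 of the 89 members (52% of all genes), with a median of -0.18 against -0.01. In CPM, both MYCN-het ganglia lay below all 3 TF-het ganglia for 38 members (11.9% of all genes) and above them for 2 (10.5%), and in TPM they lay below for 23 members (9.02%). The number below 0 was 61 to 82 with 1 library left out, with medians from -0.23 to -0.12. With a term for library depth it was 66, with a median of -0.05 against -0.03 for all genes. With the replicate number as a block it was 68 (median -0.08), and with a term for sex 81 (median -0.23). The MYCN-het libraries had 12367963 and 14221960 counts and the TF-het libraries 12169412 to 36337191. Markers of other tissues were also lower without overlap: Ucp1 read 16.8 and 32.2 TPM against 80.7 to 151 TPM, and the sums were 49.2 to 57.0 against 147 to 255 TPM for brown fat without Cox8b, 15.9 to 20.8 against 68.6 to 92.6 TPM for white fat and 12.7 to 17.1 against 34.5 to 199 TPM for skeletal muscle. Their part in the lower member levels was not tested. In heterozygous against wild-type Runx1t1 within MYCN ganglia, 0.012% of all genes were called. Without replicate 3 of the MYCN-WT ganglia, 1.92% of all genes and 0 members were called. With all libraries, 12.6% of all genes had an unadjusted p under 0.05. Of the 89 members, 8 had such a p, all lower in heterozygotes, with a lowest adjusted p of 0.321. Of these, Atp5g2 had a log2 fold change of -0.69, Sdhc of -0.98 and Cox8b of -2.91. In heterozygous against wild-type Runx1t1 without the transgene, 0% of all genes were called, and 4.12% of them and 0 members had an unadjusted p under 0.05. DESeq2 also called 0 members in each of the 4 comparisons. Of all genes, it called 7.71% in MYCN-WT against TF-WT ganglia and 0.084% in MYCN-het against TF-het ganglia. In heterozygous against wild-type Runx1t1, it called 1.58% with the transgene and 0.03% without it. The difference between the transgene's effects in the 2 Runx1t1 genotypes, tested as an interaction, gave 0 calls, 2 of 89 members with an unadjusted p under 0.05, against 937 of all 16665 genes, and a lowest p among members of 0.0401 for Ndufaf1 (edgeR adjusted p = 0.845). The spread among MYCN-WT ganglia was wide, with a median SD of log2 CPM of 0.40, against 0.26 in the transgene-free ganglia of that Runx1t1 genotype and 0.15 in tumors.

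Genes that work beside the respiratory chain moved unevenly in tumors against transgene-free ganglia, where 30.6% of all genes tested were higher and 30.9% lower. Of 77 mitochondrial ribosomal proteins, which make the mitochondrially encoded subunits, 56 were higher and 2 lower (edgeR, 75.3% called against 61.4% of all genes), with a median log2 fold change of 0.65. Of 12 biogenesis regulators, 6 were higher and 2 lower (66.7% called, near the share of all genes). The higher ones included Pprc1 (2.19), Nrf1 (1.82) and Tfam, the factor that packs and transcribes mitochondrial DNA (1.51). The lower ones were the coactivators Ppargc1a (-1.75) and Ppargc1b (-1.63). Of 38 assembly factors outside the symbol rule, 10 were higher and 6 lower (42.1% called). Among them were Coa7 at 1.29, Sco1, a copper chaperone of complex IV, at 1.06 and Coa5 at -1.10. Of 13 enzymes of the TCA cycle, 0 were higher and 4 lower (30.8%, near the share of all genes lower), with Sucla2 at -1.49 and Ogdh at -1.21. Of 7 electron carriers and related dehydrogenases, 42.9% were called. Dhodh, which feeds electrons from pyrimidine synthesis to ubiquinone, was higher (1.28), and Prodh (-1.93) and Etfdh (-0.70) were lower. In the 4 comparisons among ganglia, 0 genes of these lists were called. The genes named here were chosen after their values were seen.

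Promoters were available for 75 of the 89 members as 250 bases before to 50 after the RefSeq start (GRCm38.p6), and were searched on both strands. The ETS letters CTTCCG were found in 42.7% of members and 18.8% of all 27025 promoters, the NRF1 letters GCGCATG in 20% and 4.41%, and the E-box CACGTG in 9.33% and 8.09%. The E-box was found in 5 of 16 complex V promoters and 2 of 33 of complex I. It was found in 0 of 12 of complex IV, 0 of 3 of complex II, 0 of 5 of complex III and 0 of 6 of the assembly factors. Among members with a promoter, ETS letters stood in 7 of 11 called higher, 5 of 17 called lower and 20 of 47 not called in tumors against transgene-free ganglia, and NRF1 letters in 2, 3 and 10 of the same members. The E-box stood in 1, 2 and 4 of them. No test was made on these counts.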

How the data were processed

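RNA-Seq of 16 mouse libraries was used, prepared with a SMARTer Stranded Total RNA-seq v2 kit, while the labels list the molecule as polyA RNA. The authors deposited expected counts per gene and TPM, made with STAR, SAMtools and RSEM on mm10 according to the submitters' processing notes. Whether counting used strand is not given in the sources used here, so overlapping genes cannot be told apart. RSEM splits reads shared by near copies, which makes such counts fractional. Total counts ran from 10692299 to 38618757 per library.

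Expected counts were rounded to whole numbers and fitted over 5 groups with edgeR 4.0.16 (R 4.3.3, limma 3.58.1; filterByExpr, TMM, quasi-likelihood test), leaving 16665 of 24411 genes, with Benjamini-Hochberg adjustment over all of them and a threshold of 0.05. CPM are TMM-scaled. Transgene-free ganglia of both Runx1t1 genotypes entered the tumor comparison with equal weight per genotype mean. Isoform ratios used log2(TPM + 0.1) and scipy 1.17.1 (exact permutation test). Headers that read Hom were taken as wild-type Runx1t1. Alternatives were DESeq2 1.42.0, RLE and upper-quartile scaling, filters, terms for depth and sex (Ddx3y above 1 CPM), a replicate block, depth limits and each library left out. The code was tested on simulated data. For tumors against transgene-free ganglia, the fit recovered 26 of 100 genes changed 2-fold and 66 of 100 changed 4-fold. For heterozygous against wild-type Runx1t1 within MYCN ganglia, it recovered 7 and 46 of 100. A member that was not called can therefore still differ, above all among ganglia.

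Named members were, per complex, up to 3 higher and 3 lower called members of largest log2 fold change without overlap in CPM, the most abundant member, both genes of each isoform pair, members called among ganglia, the 4 Sdh genes and the members around the TPM limit. The members and lists were chosen with earlier results of these data known. Human MYCN and mitochondrially encoded genes were not analysed here.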

Additional observations from a re-analysis of the deposited data

Results flagged for a closer look

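Among 88 groups of 4 libraries examined in TPM, 8 held a library far from the others of its group, judged by the gap to its nearest neighbour against the range of the group. Chance gives this in about 1 in 20 groups. Replicate 2 of the TF-WT ganglia stood low for Atp5c1 (289.7 TPM) and for the sum of complex V (5920 TPM), and replicate 4 stood apart for Ndufaf4 (16.12 TPM). Among tumors, Atp5l stood apart in tumor 2 (360.0 TPM), Ndufb7 in tumor 4 (290.0 TPM), Sdhc in tumor 1 (59.01 TPM), the sum of complex II in tumor 1 (382.8 TPM) and the sum of complex III in tumor 3 (2446 TPM).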

How the results depend on the processing

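No result changed sign with a call under the alternatives run. In tumors against transgene-free ganglia, leaving out 1 library gave 10 to 14 higher and 12 to 21 lower members (57.5% to 65.1% of all genes called). The 18 lower members became 10 with a term for sex (15 higher), and 10 without replicates 3 and 4 of the TF-WT ganglia (12 higher). Of all genes, 57.6% and 57.5% were called in these fits. Against MYCN-WT ganglia, the 5 higher members became 3 with only the groups compared, 3 with a term for sex and 3 among structural subunits, and 2 to 6 with 1 library left out. The 8 lower became 17 with only libraries over 20000000 counts, 3 with only the groups compared, 4 with a term for sex, and 2 to 13 with 1 library left out. In these fits 43.1%, 27.7%, 30.9% and 21.3% to 40.6% of all genes were called, in that order, against 34.5% in the main fit. Against MYCN-het ganglia, the 11 higher became 18 with only the groups compared, 4 with a term for depth and 8 to 13 with 1 tumor left out. The 3 lower became 6 with DESeq2, 10 with only the groups compared, 1 with a term for sex and 2 to 3 with 1 tumor left out. Of all genes, 48.3% were called with only the groups compared, 43.8% with a term for depth and 50.1% with DESeq2. With a term for sex 38.9% were called, and with 1 tumor left out 42.2% to 45.8%. In MYCN-WT against TF-WT ganglia, 0 to 1 members and 0% to 10.9% of all genes were called. The Ndufa4l2 to Ndufa4 ratio ran from 0.83 to 1.28 with 1 library left out. The cause of these changes was not tested.

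Over 25 same-numbered pairs, deviations from the group means correlated from -0.491 to 0.513, and 9 pairs were over 0.1, so the numbers were not taken to pair the libraries. The 4 pairs of TF-WT ganglia and tumors were all over 0.1 (0.123 to 0.372), while the pairs of TF-het ganglia and tumors ran from -0.355 to 0.12. With the replicate block, 11 members were higher and 14 lower in tumors against transgene-free ganglia, 4 and 4 against MYCN-WT ganglia, and 8 and 6 against those with heterozygous Runx1t1, and 0 were called among ganglia. Of all genes tested, 59.8%, 30.2% and 45.5% were called in these tumor comparisons, in that order, and 0% to 0.006% among ganglia. In tumors against transgene-free ganglia, the block ended 5 of the 30 calls: Sdha (edgeR adjusted p = 0.0526), Atp5h (0.0726), Ndufb11 (0.0617), Ndufb4 (0.0789) and Uqcr10 (0.0684). Against MYCN-WT ganglia it ended the calls of Atp5l, Atp5s, Cox4i1, Ndufaf4 and Ndufb2 (edgeR adjusted p from 0.0645 to 0.109), and against MYCN-het ganglia those of Atp5a1, Atp5f1 and Ndufa12 (0.0509 to 0.0997). Of the single-gene log2 fold changes under alternatives, 1508 kept their side of the threshold, 44 passed it newly and 110 no longer passed it.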
